A study of Mus musculus with 4 samples.

Results

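Fibroblast growth factors (FGFs) and their receptors were examined as a group of 10 genes out of the 54532 genes in the count files. The members were taken by gene symbol: the ligands Fgf1, Fgf2, Fgf7, Fgf10 and Fgf18, the receptors Fgfr1, Fgfr2, Fgfr3 and Fgfr4, and the binding protein Fgfbp1. All 10 symbols were found, each in 1 row. The data were RNA sequencing counts from 4 libraries of mouse cells that the labels call primary cancer-associated fibroblasts (CAFs) of breast tumours, 2 from unirradiated and 2 from irradiated tumours, with replicates named A and B, and values of a pair are given in the order A, B. All 4 came from Dll1-mCherry-positive tumours of the MMTV-PyMT mouse on the C57BL/6 strain, in which a mammary tumour virus promoter drives the polyoma middle T oncogene in mammary epithelium. The irradiated group received 6 Gy of targeted radiation, placed at day 6 by its label, and the unirradiated group none, while all 4 titles carry day 6. The labels give no ages and do not say when after radiation the cells were collected, whether A and B were separate animals, or which fraction of the digested, PDGFRa-stained tumours was sequenced. The spread behind every p-value thus comes from 2 libraries per group, largely pooled over genes, and it may be only technical.

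FGFs are secreted signals that bind receptor tyrosine kinases on neighbouring cells, with heparan sulfate chains as part of the signalling complex. In the mammary gland and other epithelial organs, stromal cells are known as sources of Fgf7 and Fgf10, whose receptor is the epithelial splice form of Fgfr2, while mesenchymal cells mainly use Fgfr1. Activated receptors signal through the adaptor Frs2 and the RAS-ERK cascade, which induces its own inhibitors of the Sprouty, Spred and dual-specificity phosphatase families. Reads counted per gene do not separate the splice forms of a receptor.

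Total counts ranged from 13011489 to 23763830 per library. Levels are given as CPM (counts scaled to a library of fixed size). As scaled here, 1 count was worth between 0.0403 CPM in irradiated B and 0.0809 CPM in unirradiated B. Markers of the labelled cell type were present but were not the most abundant ones. The 15 fibroblast markers summed to 555 to 592 CPM in the unirradiated and 1898 to 1903 CPM in the irradiated libraries, against 9864 to 9876 and 9086 to 9430 CPM for 17 epithelial markers. Of the fibroblast markers 13 were higher and 0 lower in the irradiated libraries, and of the epithelial ones 6 were higher and 7 lower. Over all 15961 tested genes 33.9% were higher and 32.5% lower. Of 13 macrophage markers 12 were higher and 0 lower, with sums of 338 to 340 and 842 to 843 CPM. The 12 endothelial markers, 11 of them higher and 0 lower, summed on average to 95.5 and 221 CPM. Of 12 pericyte and smooth muscle markers 8 were higher and 0 lower, with sums of 270 to 280 and 492 to 499 CPM. Of 11 T and NK cell markers, 6 of them tested, 5 were lower and 0 higher, with sums of 11.8 to 12.5 and 4.56 to 4.75 CPM. Of these lower calls, those of Cd3d, Cd3g, Cd8a and Nkg7 met the filter on low counts only through the unirradiated libraries, as the higher epithelial marker Pgr met it only through the irradiated ones. Of 8 adipocyte markers, 3 of them tested, 2 were higher and 0 lower. The higher ones were Lpl and Pparg. Adipoq, Plin1, Lep and Cidec, not tested, had at most 7 counts in any library. Pck1, also not tested, had 12 and 7 counts in the unirradiated and 2 and 3 in the irradiated pair. These 7 genes are named after their values were seen. No marker gene was at 0 in all 4 libraries. The part of these shifts in the FGF results was not tested, and in such bulk samples fewer cells of a type and less RNA per cell cannot be told apart.

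Irradiated libraries had 7 of the 9 testable members higher and 2 lower at an adjusted p under 0.05. Among all 15961 tested genes 66.4% passed this threshold, 33.9% higher and 32.5% lower, so a call by itself was common. The median log2 fold change of the 9 was 0.93, against -0.00417 over all tested genes. Fgf1, Fgf2, Fgf7, Fgfr1, Fgfr2, Fgfr3 and Fgfbp1 rose, and Fgf18 and Fgfr4 fell. Fgf10 had too few counts for the filter, which asked for at least 0.599 CPM in 2 libraries. Fgf18 met it in both unirradiated libraries but in only 1 irradiated one, and the other 8 members met it in all 4. Fgf18 thus passed only through the group where it is high, which partly sets its call. Against a null of changes up to 1.5-fold, 4 members stayed higher, namely Fgf2, Fgfr2, Fgfr3 and Fgfbp1, and 0 stayed lower. Over all 15961 tested genes 2032 were higher and 1754 lower in this test. Unless DESeq2 is named, adjusted p-values come from edgeR (quasi-likelihood F-test, Benjamini-Hochberg over all tested genes).

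**Figure D1:**
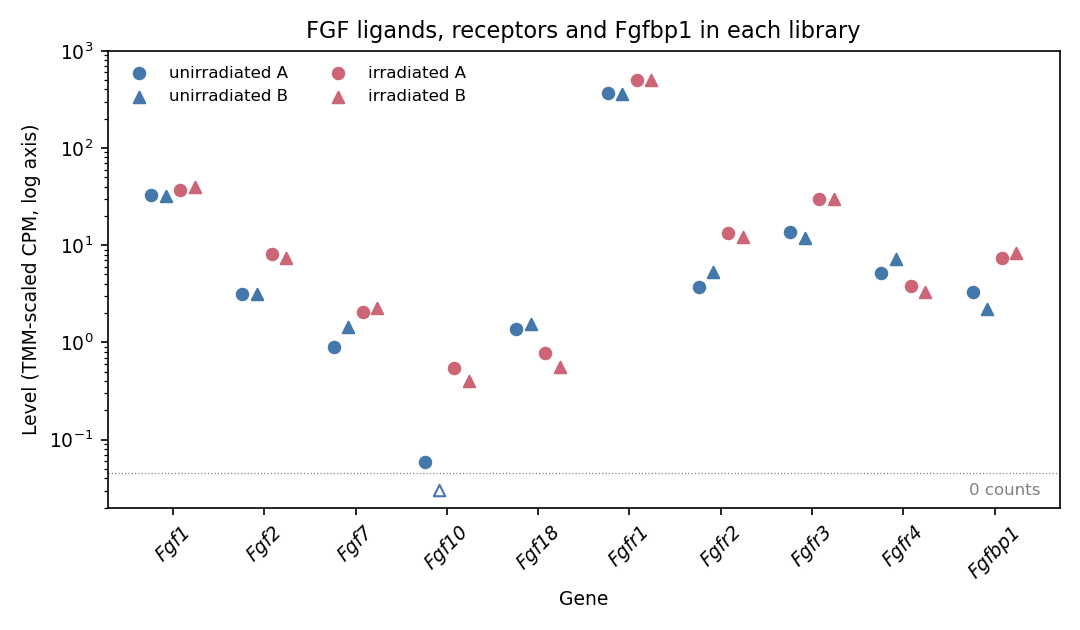
Level of each member in each library, as TMM-scaled CPM on a log axis, with 1 point per library (blue unirradiated, red irradiated, circle A, triangle B). Fgfr1 lies between 362 and 501 CPM in all libraries, and Fgf10, at 0 counts in unirradiated B (open triangle), is the least abundant member.

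The promoter windows of the 4 members that passed the 1.5-fold test are shown. These genes were picked by that result, and shared control of them was not tested. Each is 300 bases from RefSeq (GRCm38.p6), from 250 before to 50 after an annotated start, on the gene's strand. Of the members, 8 were matched by symbol, and Fgf1 and Fgfr1 are not in the table. Capitals mark matches, on either strand, to 6 motifs of common promoter elements: the TATA box (TATAAA), the CCAAT box (CCAAT), the GC box (GGGCGG), an AP-1 site (TGANTCA), an ETS core (CCGGAA) and an E-box (CACGTG).
Fgf2, chr3:37348403-37348702, plus strand: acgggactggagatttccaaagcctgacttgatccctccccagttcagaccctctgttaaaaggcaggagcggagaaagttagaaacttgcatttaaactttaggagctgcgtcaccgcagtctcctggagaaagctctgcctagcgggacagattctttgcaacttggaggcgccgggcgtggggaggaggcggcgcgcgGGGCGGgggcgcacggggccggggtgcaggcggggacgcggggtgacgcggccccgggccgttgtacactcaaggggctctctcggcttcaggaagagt
Fgfr2, chr7:130266759-130267058, minus strand: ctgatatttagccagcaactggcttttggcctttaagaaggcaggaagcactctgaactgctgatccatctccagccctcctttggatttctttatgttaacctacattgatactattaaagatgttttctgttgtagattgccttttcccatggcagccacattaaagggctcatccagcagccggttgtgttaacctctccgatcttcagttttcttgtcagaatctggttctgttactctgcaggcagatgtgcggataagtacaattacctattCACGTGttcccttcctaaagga
Fgfr3 (first of 2 starts), chr5:33721474-33721773, plus strand: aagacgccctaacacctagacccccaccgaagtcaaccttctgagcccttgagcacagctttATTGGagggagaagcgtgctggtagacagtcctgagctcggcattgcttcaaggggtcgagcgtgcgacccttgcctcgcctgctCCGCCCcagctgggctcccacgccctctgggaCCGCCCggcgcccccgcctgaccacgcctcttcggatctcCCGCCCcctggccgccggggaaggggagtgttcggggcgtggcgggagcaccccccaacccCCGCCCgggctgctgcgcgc
Fgfbp1, chr5:43981750-43982049, minus strand: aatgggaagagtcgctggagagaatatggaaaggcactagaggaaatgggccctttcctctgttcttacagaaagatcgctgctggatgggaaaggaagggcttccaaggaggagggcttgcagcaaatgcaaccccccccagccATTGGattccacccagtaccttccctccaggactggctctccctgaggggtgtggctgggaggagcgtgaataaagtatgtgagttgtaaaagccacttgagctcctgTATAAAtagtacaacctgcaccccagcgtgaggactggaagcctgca

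The GC box occurred at 1 place in the Fgf2 window and at 4 in that of Fgfr3, and at 0 in those of Fgfr2 and Fgfbp1, while 35.7% of all 32851 promoter windows hold it. The CCAAT box occurred once each in the Fgfr3 and Fgfbp1 windows, against 37.4% of all windows. The letters TATAAA occurred only in the Fgfbp1 window, starting 3 bases after the RefSeq start, and 13.6% of all windows hold them. GENCODE M21 starts this minus-strand gene at 43981779, within the window and downstream of these letters. The place of the letters relative to a start thus depends on the annotation. The Fgfr2 window held the only E-box, against 7.15% of all windows. No AP-1 or ETS match lay in the 4 windows, and 7.81% and 14.9% of all windows hold these. The windows of Fgf2 and Fgfr3 had 62.7% and 69.7% G and C with 24 and 26 CpG dinucleotides, while those of Fgfr2 and Fgfbp1 had 43.7% and 53.3% with 4 each. The medians over all windows were 52.7% and 7. Of the 27 Fgfr2 transcripts in GENCODE M21, 26 end by 130266263. On the minus strand the printed Fgfr2 window, from 130266759 up, lies upstream of these 26. It does not cover their starts, and its makeup describes the RefSeq start only.

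Fgfr1, the main mesenchymal FGF receptor (ENSMUSG00000031565, mm10 chromosome 8, 25513654 to 25575718), was by far the most abundant member. Its level was 366 and 362 CPM in the unirradiated pair and 496 and 501 CPM in the irradiated pair. The libraries of each group lay close together and the groups were well apart, at 364 ± 2.56 and 499 ± 3.48 CPM (SD, n = 2). Fgfr1 rose by a log2 fold change of 0.46 (SE 0.0413, 95% interval 0.37 to 0.54, adjusted p = 3.05e-15). A rise at least this large was seen in 24.5% of all tested genes. The rise remained past the threshold, at 0.18, when a smooth trend of the fold change with gene length and GC content was removed.

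Fgfr2, the receptor whose epithelial form binds Fgf7 and Fgf10 (ENSMUSG00000030849, chromosome 7, 130162451 to 133123350), had the largest log2 fold change among the tested members, with Fgfbp1 close behind it. The order turned without unirradiated A (1.24 for Fgfr2 and 1.87 for Fgfbp1), without irradiated A (1.46 and 1.57), with the length and GC trend removed (1.17 and 1.64) and, narrowly, with DESeq2. Its level was 3.76 and 5.34 CPM in the unirradiated pair and 13.4 and 12.1 CPM in the irradiated pair. Every irradiated library was above both unirradiated ones (4.55 ± 1.12 and 12.7 ± 0.952 CPM, SD, n = 2), with a log2 fold change of 1.51 (SE 0.177, 95% interval 1.15 to 1.86, adjusted p = 3.28e-11). A rise of this size or more was found in 6.36% of tested genes. In GENCODE M21 the long span of the gene comes from 1 of 27 transcripts, while the other 26 end by 130266263. The whole span overlaps 69 other genes, and how reads in shared stretches were counted is not given in the sources used here.

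Fgfr3, a receptor known as a brake on growing cartilage (ENSMUSG00000054252, chromosome 5, 33721674 to 33737068), was higher in both irradiated libraries. Its level was 13.8 and 11.8 CPM in the unirradiated pair and 29.9 and 29.7 CPM in the irradiated pair. The irradiated libraries were nearly equal and more than 2-fold above the others (12.8 ± 1.43 and 29.8 ± 0.107 CPM, SD, n = 2). The log2 fold change was 1.20 (SE 0.109, 95% interval 0.98 to 1.42, adjusted p = 2.79e-15).

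Fgfr4, a receptor best known in liver for the response to endocrine FGFs (ENSMUSG00000005320, chromosome 13, 55152640 to 55168759), was the receptor that fell. Its level was 5.13 and 7.28 CPM in the unirradiated pair and 3.85 and 3.31 CPM in the irradiated pair. The groups did not overlap, but the unirradiated libraries differed from each other by more than the irradiated ones did (6.21 ± 1.52 and 3.58 ± 0.382 CPM, SD, n = 2). The log2 fold change was -0.78 (SE 0.221, 95% interval -1.22 to -0.34, adjusted p = 0.00168). Without unirradiated B it was -0.54 and no longer past the threshold, and with DESeq2 it was -0.76 and did not pass, with adjusted p between 1.44e-04 and 0.227 over 14 alternatives.

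**Figure D2:**
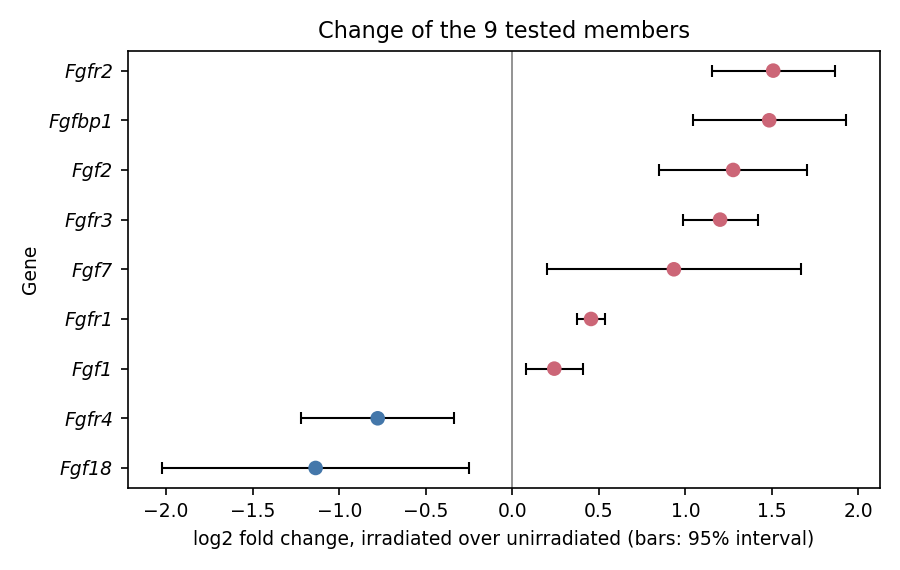
Log2 fold change of irradiated over unirradiated libraries for the 9 tested members (red higher, blue lower). Bars are 95% intervals from edgeR's fit to 2 libraries per group, with a spread largely pooled over genes. The rises run from 0.24 for Fgf1 to 1.51 for Fgfr2, and Fgfr4 and Fgf18 lie below 0 at -0.78 and -1.14.

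Scaled by gene length (CPM per kilobase), Fgfr1 made up most of the receptor transcripts in every library. Its share of the 4 receptors was 90.8% and 89.7% in the unirradiated pair and 88.5% and 89.0% in the irradiated pair. The remainder changed in makeup. The share of Fgfr2 was 0.893% and 1.27% in the unirradiated pair against 2.29% and 2.05% in the irradiated pair, and that of Fgfr3 was 4.74% and 4.04% against 7.35% and 7.29%. The share of Fgfr4 was 3.55% and 5.03% against 1.91% and 1.64%. Fgfr3 and Fgfr4 thus stood at a ratio of 1.33 and 0.803 in the unirradiated pair and of 3.84 and 4.45 in the irradiated pair. All 4 receptors together were at 40.8 ± 0.0785 and 56.9 ± 0.138 CPM per kilobase (SD, n = 2). These shares and ratios are descriptions, and no test was made of them.

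**Figure D3:**
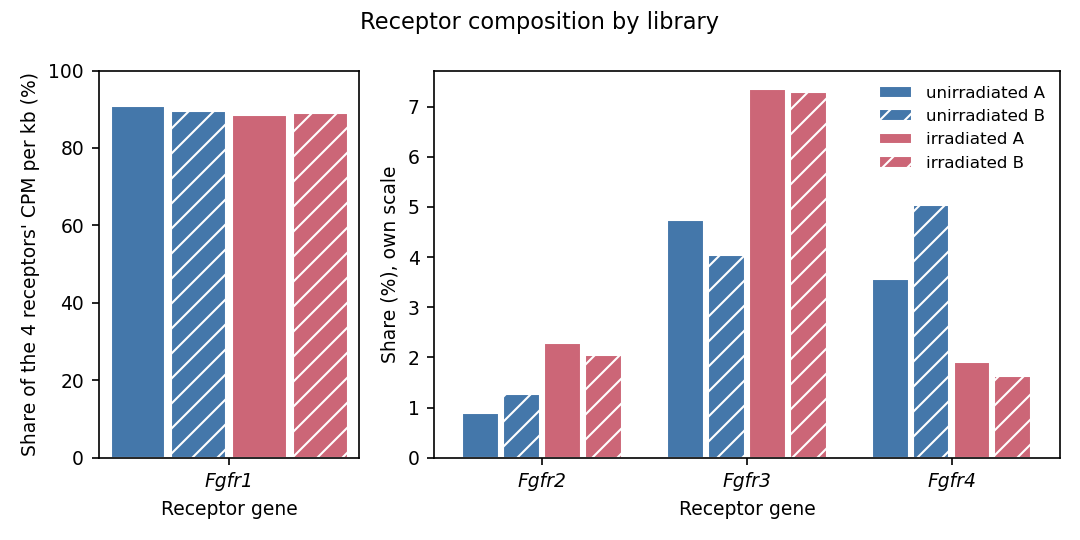
Share of each receptor in the summed CPM per kilobase of Fgfr1 to Fgfr4, in percent, with 1 bar per library (blue unirradiated, red irradiated, hatched B). Fgfr1 holds between 88.5% and 90.8%, and on the right, with its own scale, Fgfr2 and Fgfr3 have larger and Fgfr4 smaller shares in the irradiated libraries.

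Fgf1, a ligand that can bind all 4 receptors (ENSMUSG00000036585, chromosome 18, 38838673 to 38929404), was the most abundant of the 5 ligands per kilobase. Its level was 33.0 and 31.7 CPM in the unirradiated pair and 37.2 and 39.4 CPM in the irradiated pair. The groups did not overlap (32.4 ± 0.943 and 38.3 ± 1.57 CPM, SD, n = 2), and the log2 fold change was the smallest among the tested members, at 0.24 (SE 0.0826, 95% interval 0.08 to 0.41, adjusted p = 0.00820). The call was lost without irradiated B (0.21), with DESeq2 (0.28) and with the length and GC trend removed (0.12), with adjusted p between 0.00291 and 1 over 14 alternatives. Fgf1 lies wholly within Arhgap26 on the opposite strand, and the libraries carry no strand information. Arhgap26 had 156 and 114 counts in the unirradiated pair and 316 and 466 counts in the irradiated pair, a higher level as for Fgf1 (log2 fold change 1.03). The part of reads from Arhgap26 in the Fgf1 result was not tested.

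Fgf2, the basic FGF that is stored on matrix heparan sulfate (ENSMUSG00000037225, chromosome 3, 37348346 to 37410108), had the largest log2 fold change among the tested ligands. Its level was 3.16 CPM in both unirradiated libraries and 8.12 and 7.34 CPM in the irradiated pair. The irradiated libraries were more than 2-fold higher (3.16 ± 0.00452 and 7.73 ± 0.548 CPM, SD, n = 2), with a log2 fold change of 1.28 (SE 0.213, 95% interval 0.85 to 1.70, adjusted p = 4.33e-07). The 3′ part of Fgf2 overlaps Nudt6 on the opposite strand, and the library kit does not mark strand. Nudt6 had 74 and 59 counts in the unirradiated pair and 35 and 43 counts in the irradiated pair. Its gene count does not measure reads in the shared stretch, whose part in the Fgf2 result was not tested. Relative to Fgf1, Fgf2 went from 15.3 and 14.7 times lower per kilobase in the unirradiated pair to 6.68 and 7.82 times lower in the irradiated pair.

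Fgf7, the keratinocyte growth factor made by stroma (ENSMUSG00000027208, chromosome 2, 126034658 to 126091185), was detected at a low level. It had 15 and 18 counts in the unirradiated pair and 34 and 56 counts in the irradiated pair, or 0.895, 1.46, 2.04 and 2.26 CPM. Both irradiated libraries were above both unirradiated ones (1.18 ± 0.397 and 2.15 ± 0.152 CPM, SD, n = 2), with a log2 fold change of 0.93 (SE 0.368, 95% interval 0.20 to 1.67, adjusted p = 0.0224). The call was lost without unirradiated A (0.58), without irradiated B (0.86) and with DESeq2 (0.93), with adjusted p between 0.0145 and 0.284 over 14 alternatives.

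Fgf10, the other stromal ligand of the epithelial form of Fgfr2 (ENSMUSG00000021732, chromosome 13, 118669791 to 118792115), was close to undetected. It had 1 and 0 counts in the unirradiated pair and 9 and 10 counts in the irradiated pair. Scaled for library size, the summed counts of 1 and 19 gave a ratio of 13.4 with a 95% exact binomial interval of 2.12 to 555, which covers counting error only. With no filter on low counts edgeR's test gave an adjusted p of 0.0136 and DESeq2 gave an adjusted p of 0.108. A count of 0 in a single library of this depth leaves its level uncertain.

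Fgf18, a ligand of skeletal and lung development (ENSMUSG00000057967, chromosome 11, 33117430 to 33147400), was the ligand that fell. It had 23 and 19 counts in the unirradiated pair and 13 and 14 counts in the irradiated pair, or 1.37, 1.54, 0.782 and 0.565 CPM. Only 1 irradiated library was over the filter's cutoff of 0.599 CPM. Fgf18 thus met the filter only through the unirradiated libraries, where it is high, and its call is partly set by that. The irradiated libraries were below both unirradiated ones (1.45 ± 0.117 and 0.673 ± 0.153 CPM, SD, n = 2), with a log2 fold change of -1.14 (SE 0.445, 95% interval -2.03 to -0.25, adjusted p = 0.0214). The call was lost without unirradiated A (-1.23), without unirradiated B (-1.06), without irradiated B (-0.87), with DESeq2 (-1.09) and with the length and GC trend removed (-0.70). Adjusted p lay between 0.0177 and 0.245 over 14 alternatives.

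Fgfbp1, a secreted carrier that frees FGFs from the matrix (ENSMUSG00000048373, chromosome 5, 43978858 to 43981779), rose about as much as Fgfr2. Its level was 3.34 and 2.18 CPM in the unirradiated pair and 7.40 and 8.39 CPM in the irradiated pair. The lowest irradiated library was more than 2-fold above the highest unirradiated one (2.76 ± 0.818 and 7.89 ± 0.704 CPM, SD, n = 2). The log2 fold change was 1.48 (SE 0.221, 95% interval 1.04 to 1.93, adjusted p = 2.72e-08). A rise of this size or more was found in 6.47% of tested genes.

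Ranked by level per kilobase, the unirradiated order was Fgfr1, Fgf1, Fgfr3, Fgfr4, Fgf18, Fgfbp1, Fgf2, Fgfr2, Fgf7 and Fgf10. Fgfr1 was at 36.8 ± 0.259 and Fgf1 at 6.97 ± 0.203 CPM per kilobase (SD, n = 2), and the next, Fgfr3, at 1.93 and 1.65 in A and B. The library values of Fgfr3 and Fgfr4, of Fgf18 and Fgfbp1, of Fgf2 and Fgfr2, and of Fgfr2 and Fgf7 overlapped, so these neighbours were not separated. In the irradiated libraries the order was Fgfr1, Fgf1, Fgfr3, Fgfbp1, Fgfr2, Fgf2, Fgfr4, Fgf7, Fgf18 and Fgf10. There Fgfr1 was at 50.5 ± 0.353, Fgf1 at 8.23 ± 0.337, Fgfr3 at 4.16 ± 0.0150 and Fgfbp1 at 3.49 ± 0.311 CPM per kilobase (SD, n = 2). Neighbours that overlapped were Fgfr2 and Fgf2, Fgf2 and Fgfr4, and Fgf7 and Fgf18. Averaged over the 4 libraries, Fgfr1 exceeded 93.3% and Fgf1 62.1% of all tested genes in level per kilobase, while Fgf2, Fgf7, Fgf18 and Fgfr2 exceeded between 13.3% and 20.2%. Gene lengths are those in the files, and transcripts in use may be shorter.

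**Figure D4:**
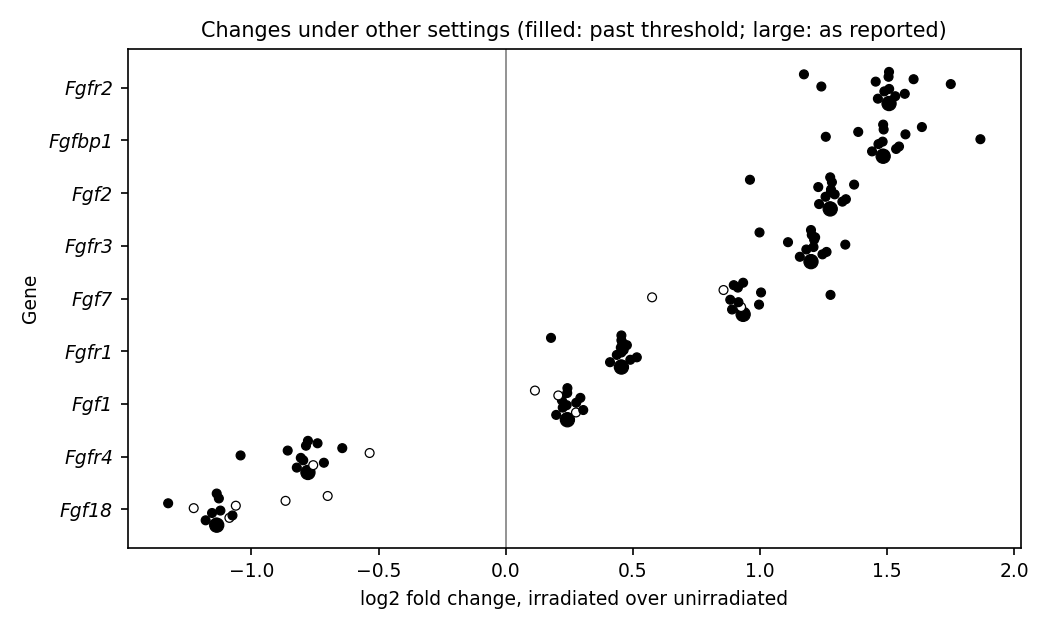
Log2 fold change of each tested member under the reported fit (large point) and 13 other settings (small points), filled where the change passed the threshold; the test against 1.5-fold, under which Fgfr1, Fgf7, Fgf1, Fgfr4 and Fgf18 lost their calls, is not drawn. Fgfr2, Fgfbp1, Fgf2, Fgfr3 and Fgfr1 are filled in these 13 settings, while Fgf7, Fgf1, Fgfr4 and Fgf18 have open points, and no point crosses 0.

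The profile over the 4 libraries most like that of Fgfr2, by Euclidean distance between log2 CPM values centred per gene, was that of C3ar1 (distance 0.0858), followed by Pla2g15 (0.0968) and Adarb1 (0.111). C3ar1, the receptor of complement fragment C3a, was at 2.89 ± 0.715 and 8.62 ± 0.900 CPM (SD, n = 2). For Fgf18, the member with the largest fall in the reported fit but not with the length and GC trend removed (-0.70, against -0.74 for Fgfr4), the nearest genes were Ttbk1 (0.0855), Dlx3 (0.0925) and Dnajc28 (0.107). Ttbk1 was at 1.00 ± 0.0688 and 0.422 ± 0.0834 CPM (SD, n = 2), under the filter's cutoff of 0.599 CPM in the irradiated libraries. Like Fgf18, it met the filter only through the unirradiated libraries, so their likeness is partly set by that. Dlx3, a homeobox transcription factor, was at 12.5 ± 0.193 and 6.21 ± 1.08 CPM (SD, n = 2). Such distances over 4 libraries describe the shape of a profile only.

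The other ligands of the family were scarcely present. Of 13 further secreted FGFs, 1 passed the filter and was lower. It was Fgf15, an intestinal hormone of bile acid control, named after its values were seen, with 14 and 12 counts in the unirradiated pair and 2 counts in each irradiated library. It met the filter only through the unirradiated libraries, so that it had to differ, and its call supports nothing. The 13 genes together summed to 3.94 and 3.56 CPM in the unirradiated pair and to 1.32 and 1.37 CPM in the irradiated pair. Of 4 intracellular FGF homologous factors, which bind sodium channels rather than FGF receptors, 2 were tested and 1, Fgf13, was called higher. Fgf13 had 5 counts in each unirradiated library and 48 and 76 counts in the irradiated pair, or 0.351 ± 0.0751 and 2.98 ± 0.127 CPM (SD, n = 2). It met the filter only through the irradiated libraries, so its call too was set by where it is high.

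Of 18 co-receptors and binding proteins, 17 were in the files, 14 were tested, 13 were higher and 0 lower, and their median log2 fold change was 0.91, beside 33.9% higher, 32.5% lower and a median of -0.00417 over all tested genes. Sdc4, a heparan sulfate proteoglycan of focal adhesions, rose from 511 and 508 CPM in the unirradiated pair to 1477 and 1496 CPM in the irradiated pair (1.55 ± 0.0380 SE on the log2 scale). Gpc3 and Gpc6, glypicans anchored to the cell surface, rose as well. Gpc3 was at 2.73 ± 0.487 and 24.5 ± 1.60 CPM, and Gpc6 at 2.78 ± 0.378 and 13.2 ± 0.0738 CPM (SD, n = 2). Flrt2, a leucine-rich transmembrane protein, rose from 0.520 ± 0.277 to 9.23 ± 0.556 CPM (4.04 ± 0.315 SE on the log2 scale), or by 4.79 without unirradiated A. It had only 12 and 4 counts in the unirradiated pair, where B was under the filter's cutoff of 0.599 CPM. Tested against 1.5-fold, 8 of the list stayed higher, beside 2032 of all 15961 tested genes. The one tested member that did not pass was Fgfbp3, a relative of Fgfbp1, at 1.55 and 2.59 CPM in the unirradiated and 1.98 and 3.75 CPM in the irradiated pair (0.60 ± 0.314 SE on the log2 scale, adjusted p = 0.0837), named after its values were seen. The endocrine co-receptors Kl and Klb, needed by the hormone-like FGFs, had at most 5 counts in any library and were not tested.

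Of 19 adaptors and kinases downstream of the receptors, all tested, 10 were higher, 2 were lower and 7 did not pass, and their median log2 fold change was 0.23. The share that passed was no more than the 66.4% over all tested genes. The docking protein gene Gab1 rose from 59.9 ± 4.58 to 139 ± 5.11 CPM (1.22 ± 0.0602 SE on the log2 scale), Plcg1, encoding a phospholipase bound by the receptors, from 57.8 ± 3.86 to 109 ± 0.689 CPM, and Ptpn11, encoding the phosphatase SHP2, from 97.4 ± 4.47 to 165 ± 0.531 CPM (SD, n = 2). Cbl, a ubiquitin ligase that removes active receptors, rose from 38.6 ± 1.41 to 60.3 ± 7.71 CPM (SD, n = 2). The lower ones were the kinases Map2k2 (-0.35) and Mapk3 (-0.32), singled out after their values were seen. With the length and GC trend removed 6 were higher and 4 lower, and tested against 1.5-fold 3 were higher and 0 lower. Over all 15961 tested genes 4726 were higher and 5333 lower in the former setting, and 2032 and 1754 in the latter.

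Of 12 feedback inhibitors, all tested, 7 were higher, 3 were lower and 2 did not pass, beside 33.9% higher and 32.5% lower over all tested genes, and their median log2 fold change was 0.25. Il17rd, a membrane inhibitor of FGF signalling, rose from 9.76 ± 2.67 to 22.4 ± 0.809 CPM (1.23 ± 0.131 SE on the log2 scale). Dusp5 and Dusp6, phosphatases that act on ERK, rose. Dusp5 was at 270.3 ± 3.50 and 588 ± 20.4 CPM and Dusp6 at 410.0 ± 6.42 and 686 ± 0.915 CPM (SD, n = 2), with log2 fold changes of 1.12 and 0.74. Spry1, a Sprouty inhibitor, was at 115 and 123 CPM in the unirradiated pair and at 70.4 and 71.9 CPM in the irradiated pair, a fall (-0.74 ± 0.0584 SE on the log2 scale). The other lower genes were Dusp4 (-0.53) and Spred3 (-0.39), and the Sprouty gene Spry2 was higher (0.70), all named after their values were seen. So was Spry3, which was scarce, with 0 and 4 counts in the unirradiated and 14 and 27 counts in the irradiated pair, and is counted among the 7 higher. It met the filter only through the irradiated libraries.

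Of 14 genes known as targets of FGF and ERK signalling, all tested, 6 were higher, 6 lower and 2 did not pass, beside the same 33.9% and 32.5%, and their median log2 fold change was -0.01. Plaur, the urokinase receptor gene, rose from 32.1 ± 0.862 to 96.2 ± 4.80 CPM (1.58 ± 0.0704 SE on the log2 scale), Ccnd1, encoding cyclin D1, from 83.1 ± 5.21 to 235 ± 9.22 CPM (1.49, SE 0.0538) and Egr3, an early growth response factor, from 96.3 ± 0.337 to 185 ± 3.62 CPM (0.94, SE 0.0526; SD, n = 2). Etv1, an ETS factor, fell from 142 ± 4.69 to 45.2 ± 2.83 CPM (-1.66 ± 0.0612 SE on the log2 scale). Its relatives Etv4 and Etv5, named for comparison after their values were seen, had log2 fold changes of 0.21 and -0.23. The early response genes Fos and Ier2, also named after their values were seen, fell by 0.88 and 0.93 on the log2 scale. Targets and inhibitors thus moved both ways, and other growth factors also act through ERK on these genes.

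Of 6 regulators of receptor splicing, all tested, 2 were higher and 3 lower, again beside 33.9% and 32.5%, and their median log2 fold change was -0.17. Esrp1 and Esrp2, which favour the epithelial receptor forms, fell. Esrp1 was at 285 ± 4.98 and 224 ± 0.742 CPM and Esrp2 at 101 ± 0.108 and 67.1 ± 0.700 CPM (SD, n = 2), with log2 fold changes of -0.35 (SE 0.0451) and -0.58 (SE 0.0596). Ptbp2, a splicing repressor, fell by 0.45 on the log2 scale. Rbfox2, a factor linked to mesenchymal splicing, was at 65.1 ± 4.24 and 74.5 ± 2.81 CPM (0.19 ± 0.0645 SE on the log2 scale, adjusted p = 0.00751). Its direction turned to -0.04 with the length and GC trend removed, and its call was lost without unirradiated B (0.14) and without irradiated B (0.16).

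**Figure D5:**
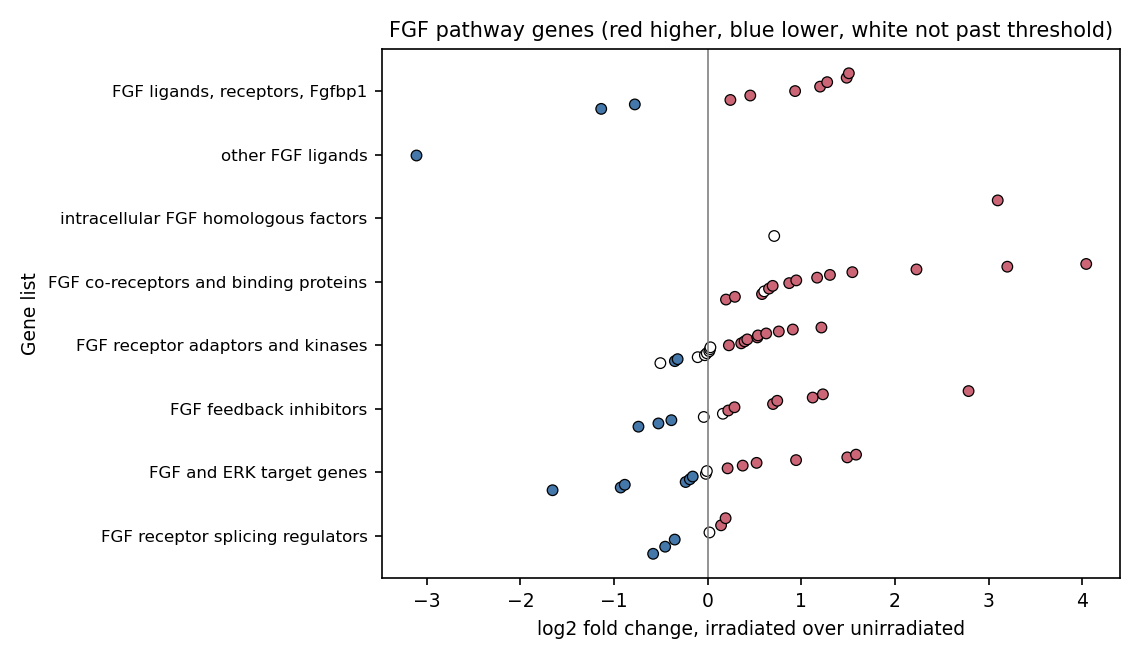
Log2 fold change of irradiated over unirradiated libraries for every tested gene of 8 FGF lists, 1 point per gene (red higher, blue lower, white not past the threshold, by edgeR). Co-receptors and binding proteins lie right of 0, while inhibitors, targets and splicing regulators lie on both sides.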

How the data were processed

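Per the labels' protocols, the 4 libraries were made from poly(A) RNA and carry no strand information. The submitters' processing notes name STAR 2.5, HTSeq 0.6.1, DESeq2 and the mm10 build, without their settings. What the authors deposited are raw counts per gene, whole numbers for 54532 genes. A column headed gene length served for levels per kilobase. Coordinates are those of the files, and 9 of the 10 members have the same ones in GENCODE M21. Fgf1 differs at one end.

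Groups came from the sample titles. Counts were filtered by filterByExpr, scaled by TMM and tested by the quasi-likelihood F-test of edgeR 4.0.16 (R 4.3.3), with a threshold of 0.05 after Benjamini-Hochberg adjustment over 15961 genes. Each SE is the absolute log2 fold change divided by √F. The spread in F is mostly pooled over genes, with a median of 60.0 prior against 2 residual degrees of freedom. The code was tested on simulated data. Libraries of a group differed by 2.13 and 2.16 times the chi-square expected from counting alone (medians over genes), and each was kept as a replicate. This excess does not show whether A and B were separate animals or technical repeats. The smallest p an exact two-sided test of 2 against 2 allows is 0.333, so none was used. No label gives a batch, and irradiation cannot be told apart from one lying along the groups.

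Named genes are all 10 members and, per list, up to 4 called genes averaging 1 CPM or more, taken by size of change, then the 3 genes most alike in profile to the members with the largest rise and fall. Members and lists were chosen with earlier results of these data known. Other settings tried were scaling by RLE or upper quartile, DESeq2 1.42.0, the filter dropped or set to 1 CPM in 2 libraries, a replicate block, each library left out, a length and GC trend removed (mgcv 1.9.3), a 0.1 threshold, testing against 1.5-fold, and edgeR's legacy fit, chosen after seeing the data.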

Additional observations from a re-analysis of the deposited data

How the results depend on the processing

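None of the 9 tested members changed direction under any of the 14 alternatives, and the calls of Fgf2, Fgfr2, Fgfr3 and Fgfbp1 held under all of them. Fgfr1 was lost only when tested against 1.5-fold (log2 fold change 0.46). Against 1.5-fold Fgf1 (0.24), Fgf7 (0.93), Fgf18 (-1.14) and Fgfr4 (-0.78) were also lost, 4 members were higher and 0 lower, and over all genes 2032 were higher and 1754 lower. With DESeq2 the calls of Fgf1 (0.28), Fgf7 (0.93), Fgf18 (-1.09) and Fgfr4 (-0.76) were lost, and 0 members were lower. Of 19643 genes that DESeq2 tested under its own filter, 4487 were higher and 3421 lower. The reported fit had 5409 higher and 5184 lower of 15961. Removal of the length and GC trend ended the calls of Fgf1 (0.12) and Fgf18 (-0.70), leaving 1 member lower. With 1 library left out, assuming that a lone library varies like the others, log2 fold changes ran from 0.21 to 0.29 for Fgf1, 0.58 to 1.28 for Fgf7, -1.33 to -0.87 for Fgf18 and -1.04 to -0.54 for Fgfr4, and the number of lower members from 0 to 2.

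In the other lists, tested against 1.5-fold, 8 co-receptors and binding proteins were higher. Of the adaptors and kinases 3 were higher and 0 lower, and of the feedback inhibitors 5 were higher and 1 lower. Of the targets 3 were higher and 3 lower, and 0 splicing regulators were higher and 0 lower. Over all 15961 tested genes 2032 were higher and 1754 lower in this test. With the length and GC trend removed 6 adaptors and kinases were higher and 4 lower, 2 intracellular homologous factors were higher, 0 splicing regulators were higher, and the log2 fold change of Rbfox2 reversed to -0.0426. At a threshold of 0.1, 4 adaptors and kinases were lower and 2 intracellular homologous factors higher. Of the further secreted ligands 2 were lower with no filter and 0 with the stricter filter. With 1 library left out the number of lower further secreted ligands ran from 1 to 2, of higher intracellular homologous factors ran from 1 to 2 and of higher splicing regulators ran from 1 to 2. The cause was not tested. The letters A and B gave no sign of pairing (correlation of the A minus B differences of both groups 0.01 across genes), and with the replicate block 5418 genes and 7 members were higher and 5200 genes and 2 members lower, with no member's call changed. Depth limits Fgf10, Fgf18 and Fgf7 most, with at most 10, 23 and 56 counts in any library.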
